A study of Mus musculus with 20 samples.

Results

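The transcriptional response to raised Wnt/β-catenin signalling was measured in mouse nephron progenitor cells (NPCs) in which sgRNAs targeted Cdh2, Cdh3, Cdh4 and Cdh11 together, the quadruple cadherin knockout (QCKO). The members were chosen by their labels. They are 2 libraries from cells kept in 5 µM CHIR99021 (high CHIR) and 2 from cells kept in 1.25 µM (low CHIR), 4 of the 20 libraries of the series. Each high CHIR library has a low CHIR partner with the same date in its title, called here replicate 2 and replicate 3, and the labels do not say which step the date records. The NPCs were primary kidney cells carrying a Cas9-eGFP transgene. They received the sgRNAs with mCherry mRNA by lipofection, passed a knockout period of 48 h and then 24 h at either CHIR concentration, and the transfected, mCherry+ cells were sorted. QCKO therefore means a pool of transfected cells, not a clone, and the libraries do not show how many alleles were disrupted. CTRL cells (3 libraries at each concentration) received a GFP sgRNA under the same procedure, and α-catenin KO (2 and 2) and β-catenin KO (3 and 3) serve below as comparisons.

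CHIR99021 inhibits the kinase GSK3β, which otherwise marks β-catenin for destruction. Stabilised β-catenin enters the nucleus and joins TCF/LEF factors to activate Wnt target genes. In the embryonic kidney, a low level of this signal keeps Six2+ progenitors dividing, whereas a high level starts the nephron programme, in which mesenchymal progenitors gather into pretubular aggregates and become epithelial. Classical cadherins bind neighbouring cells through their extracellular domains and hold β-catenin and α-catenin at the membrane, so β-catenin has both an adhesive and a transcriptional pool. The comparison asks which genes still answered high CHIR when the 4 cadherins were targeted.

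The guide of Cdh2 is not reported here. Those of the other 3 targets are shown, because they are part of the perturbation that all 4 libraries share. They are RNA protospacers of 20 bases, written 5′ to 3′, with the 10 bases nearest to the PAM in capitals.
Cdh3: ccgaugaagcCCGCUCGGUA
Cdh4: ccauccccagGCCCACCGUG
Cdh11: caccagcacaGGGUCAGGCC
The 3 protospacers held 13, 15 and 14 G or C bases, respectively.

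The normalized counts could be turned back into 18124772 to 28472412 reads per library. The low CHIR libraries of QCKO held 24236309 and 21318531 reads, and their high CHIR partners held 18124772 and 23371121. A gene was called higher or lower at an adjusted p (limma, Benjamini-Hochberg) under 0.05 and an absolute log2 difference over 0.5 in a fit of 14 libraries with the title date as a block. The p-values measure the spread that remains between libraries of a group after the date block, pooled over the 14 libraries. QCKO has 2 dates. Symbols could be given to 3924 of the 16516 genes tested, and these come from the authors' tables of genes past their own thresholds. Genes with a symbol were thus already selected for a difference somewhere in the series, and 25.6% of them were called here against 7.74% of all genes tested. By direction, 12.5% of genes with a symbol were called higher and 13.1% lower, and counts of listed genes are read against these shares. Listed genes without a symbol could not be examined, so most lists were seen only in part. A symbol was available for 6 of 30 proliferation genes and 7 of 55 junction genes, for example. In bulk libraries, fewer cells of a type and less RNA per cell cannot be told apart.

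High CHIR changed the QCKO transcriptome in both directions. Of 16516 genes, 668 were higher (4.04%) and 610 were lower (3.69%), 1278 in all. Among the genes called, 607 rose and 552 fell by more than 1 on the log2 scale, and 91 rose and 58 fell by more than 4. Both dates moved in the fitted direction for all 1278 genes. For 1271 of them the high and low CHIR libraries did not overlap, compared with 56.1% of all genes tested. The log2 responses at the 2 dates differed by a median of 0.424 among called genes, and for 247 genes by more than 1. Without pairing the libraries by date, 814 genes were called (432 higher and 382 lower), all of them among the 1278. Leaving out 1 QCKO library left between 520 and 630 calls. There were 598 and 630 without low CHIR replicates 2 and 3, and 607 and 520 without high CHIR replicates 2 and 3. When the spread was estimated from the 4 QCKO libraries alone, 2806 genes were called, but that fit leaves only 1 residual degree of freedom per gene.

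Genes that maintain the progenitor state fell together. Of 12 listed self-renewal genes tested, 11 were lower, none was higher and Dpf3 was not called (adjusted p = 0.247), and the median log2 difference was -3.81, against -0.000309 over all tested genes with a symbol. Several genes of this list and of the induction list were named by the study from other libraries of this series, so the lists were not drawn up independently of these data. Six2, the homeobox gene that holds NPCs undifferentiated (chr17:85662736-85688254 in the RefSeq annotation of GRCm38.p6), stood at 1318 and 1373 normalized counts under low CHIR and at 27.8 and 44.0 under high CHIR, in the order of replicates 2 and 3. Its log2 difference was -5.23 ± 0.33 (SE, n = 2 per group; adjusted p = 5.81e-06, limma). Meox2, another homeobox gene of the uninduced mesenchyme (chr12:37108540-37179534), went from 2118 and 1477 to 13.3 and 14.03. Both high CHIR libraries lay far below both low CHIR libraries for each gene. The zinc finger gene Osr1, needed to form the nephric mesenchyme, counted 1393 and 1039 in low CHIR against 48.3 and 44.9 in high CHIR. Crym, which encodes the thyroid hormone-binding protein μ-crystallin, fell from 2276 and 2414 to 111 and 87.9, and Robo2, a receptor for Slit ligands, from 7138 and 4497 to 345 and 323. Cited1, the marker of the most naive NPCs, kept 426 and 342 counts in high CHIR after 3408 and 4493 in low CHIR, a log2 difference of -3.35 ± 0.36. Eya1, the phosphatase co-activator of homeobox factors such as Six2, dropped less, from 3926 and 3837 to 653 and 364. The smallest called decreases of the list belonged to Wt1 at -2.36 ± 0.19 and the R-spondin gene Rspo1 at -2.83 ± 0.63. Foxc2 was scarce, at 54.7 and 90.6 against 7.24 and 2.81, and its call was lost without either replicate 3 library. The call of Rspo1 was lost without any 1 of the 4 QCKO libraries, and its adjusted p was 0.0885 without the date block.

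Genes of nephron induction rose. Of 13 listed genes tested, 10 were higher, Hes1 and Bmper were lower and Bmp2 was not called (adjusted p = 0.215). Wnt4, the ligand through which induced cells become epithelial (chr4:137277635-137299501), went from 98.0 and 102 in low CHIR to 5664 and 4798 in high CHIR, a log2 difference of 5.69 ± 0.33 (adjusted p = 4.93e-06, limma). Lef1, a TCF/LEF factor that is itself a Wnt target (chr3:131110297-131224357), went from 58.1 and 74.2 to 1205 and 1492. The replicates of both genes lay close together at each concentration. Jag1, the Notch ligand of the distal renal vesicle, stood at 359 and 907 in low CHIR against 4024 and 10563 in high CHIR. Lhx1, a LIM homeobox gene of the renal vesicle, counted 53.8 and 145 against 1217 and 2772, and Emx2, another homeobox gene, 32.1 and 86.8 against 676 and 1976. For these 3 genes replicate 3 was the higher library at both concentrations, while their responses were close at both dates. The log2 response of Jag1 was 3.48 at the first date and 3.54 at the second, that of Lhx1 was 4.47 and 4.25, and that of Emx2 was 4.35 and 4.49.

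**Figure D1:**
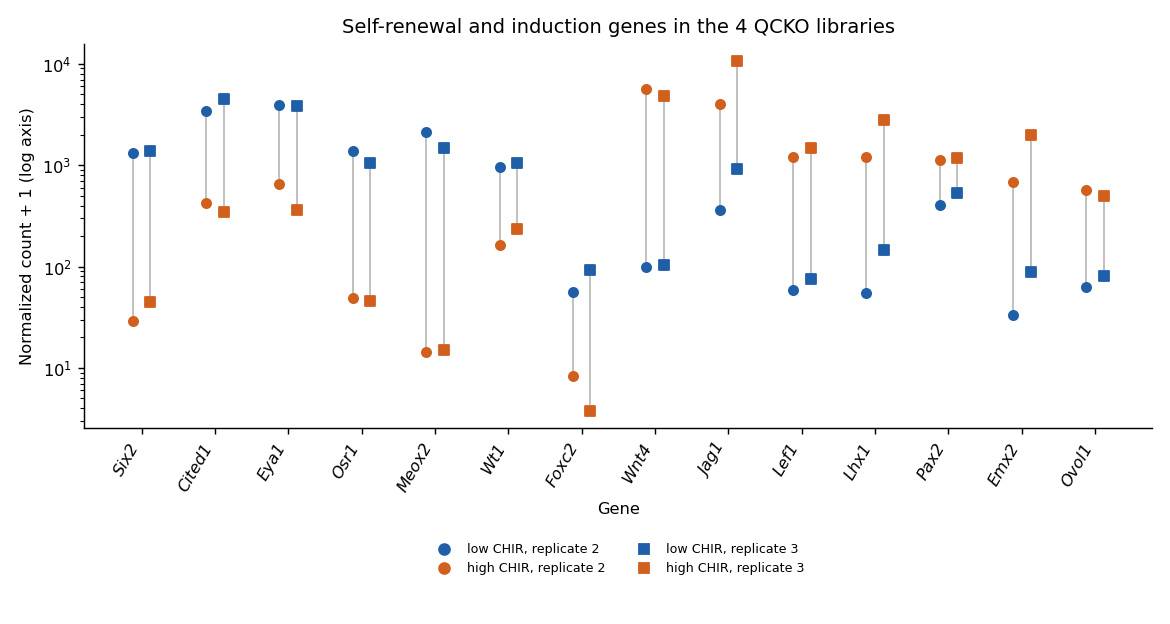
Normalized count plus 1 (log axis) of 7 self-renewal genes, from Six2 to Foxc2, and 7 induction genes, from Wnt4 to Ovol1, in each of the 4 QCKO libraries. Blue points are low CHIR, orange points high CHIR, circles replicate 2 and squares replicate 3, and grey lines join libraries of 1 title date; for all 14 genes both orange points lie on the same side of both blue points.

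Pax2, a paired-box gene already expressed in NPCs, rose less, from 400 and 529 to 1134 and 1181. Its log2 difference of 1.33 ± 0.34 passed the test with the date block but not without it (adjusted p = 0.0354 and 0.0715), and 6 of 14 omissions of a library ended the call. Ovol1, a zinc finger gene of epithelia, counted 62.5 and 80.0 against 574 and 495, and lost its call without the high CHIR library of replicate 2. The call of Lhx1 was lost without any 1 QCKO library. Greb1, an oestrogen-responsive growth gene, rose by 3.99 ± 0.36 and Npy, a neuropeptide precursor, from 229 and 517 to 1886 and 4051. Hes1, the Notch effector, moved the other way, from 720 and 1006 to 168 and 172, as did the BMP-binding endothelial regulator Bmper, from 4914 and 3405 to 724 and 405.

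The Wnt pathway genes with a symbol changed in opposite directions within each role. Among the ligands and R-spondins, Wnt5b rose from 126 and 138 to 295 and 280 beside Wnt4, while the agonist Rspo1 fell, and Wnt11, also a ureteric tip marker, missed the filter on low values with 0 and 0.964 normalized counts against 4.83 and 4.68. The call of Wnt5b, with a log2 difference of 1.12 ± 0.23, was lost without any 1 QCKO library. Of 13 receptors and co-receptors tested, 2 were higher, 3 were lower and 8 were not called. Fzd6, a Frizzled receptor, went from 20.0 and 42.4 to 659 and 1040, and Fzd10 from 0.867 and 3.86 to 55.5 and 48.6. The opposite change was seen for Fzd4, at 784 and 1078 against 50.7 and 119. Fzd2, at 1632 and 1678 against 854 and 687, and the co-receptor Lrp6, at 1981 and 2429 against 1145 and 1190, fell by about 1 on the log2 scale. The call of Fzd2 was lost without either replicate 3 library, and the adjusted p of Lrp6 was 0.0194 with the date block and 0.0763 without it.

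Among nuclear factors, 2 of 6 genes tested were higher, 2 were lower and 2 were not called. Lef1 rose by 4.33 ± 0.24 and Tcf7 by 1.31 ± 0.23, from 186 and 279 to 497 and 642. Tcf7l1, the family member known chiefly as a repressor, fell by 1.58 on the log2 scale, from 1846 and 1974 to 683 and 598. Bcl9l, a co-activator that bridges β-catenin, also fell, from 818 and 953 to 356 and 406. The calls of Lef1 and Tcf7l1 held in all omissions of a library, whereas Bcl9l lost its call without any 1 QCKO library and Tcf7 without 3 of the 4.

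Feedback genes of the pathway were split as well, with 3 of 7 higher, 2 lower and 2 not called. Axin2, a scaffold of the destruction complex and a general Wnt target (chr11:108917828-108950783), stood at 74.6 and 68.5 in low CHIR against 575 and 550 in high CHIR. Notum, a secreted enzyme that inactivates Wnt ligands (chr11:120653788-120661193), was at 2.60 and 1.93 against 392 and 228. It had 5 reads in low CHIR and 569 in high CHIR, a ratio of normalized levels of 131 with a 95% exact interval of 55.9 to 406 that covers counting error only. Sp5, a zinc finger target of β-catenin, was at 3.47 and 2.89 against 32.6 and 82.3. The secreted Dickkopf family members fell. Dkk3 went from 445 and 747 to 185 and 222, and Dkk2 from 119 and 50.1 to 26.6 and 9.35. Both passed the test only with the date block, with adjusted p values of 0.0797 and 0.149 without it. In the fit of all 20 libraries, which adds those of β-catenin KO, Axin2 (adjusted p = 0.14), Sp5 (0.168), Fzd10 (0.109), Tcf7 (0.163) and Wnt5b (0.0649) were not called, with the same log2 differences. Lgr5 (adjusted p = 0.27) and Myc (adjusted p = 0.164), Wnt targets in other epithelia, were not called.

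Promoters were searched for the TCF/LEF core CTTTGAT on either strand, in windows from 250 bases before to 50 after each RefSeq start (GRCm38.p6). At least 1 match was found for 3.46% of the 347 higher genes with a promoter, 2.48% of the 363 lower genes and 2.9% of the 1827 genes with a symbol that were not called. Over all 27025 genes the share was 4.29%, but genes with a symbol are a selected set, and none of these differences was tested. Some of the named and called genes with a match upstream of the start are printed 5′ to 3′ on the gene's strand. The motif or its reverse complement is in capitals. They are shown because they include genes that rose and 1 that fell. The selection is not complete, since not every named gene or chromosome was searched for it.
Sp5: ggcaaggccccCTTTGATcaggaaaatcc
Wnt5b: agtaagtctctCTTTGATctgctccctgt
Sv2b: ggaattagattCTTTGATtattgcaatct
Mecom: aagatctccaaATCAAAGtgataaatcgc
Tgtp1: acagcccccctCTTTGATggtttagataa
These lie at chr2:70474808-70474836, chr6:119449440-119449468, chr7:75220034-75220062, chr3:30509780-30509808 and chr11:48992274-48992302. A match is a run of letters, not a measured binding site, and no match in these windows leaves other regulatory DNA unread.

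Of the 4 targeted cadherins, 2 were higher in high CHIR, 1 was lower and 1 was not called, and the guides did not empty their transcripts. In low CHIR, Cdh2 (N-cadherin) stood at 2592 and 2071 in QCKO and between 2241 and 4920 in CTRL, and Cdh11 (osteoblast cadherin) at 2519 and 1818 against 3594 to 5112 in CTRL. Cdh3 (P-cadherin) at 535 and 829 and Cdh4 (R-cadherin) at 1796 and 2512 overlapped the CTRL ranges of 277 to 726 and 1888 to 2494. Transcript levels do not report small frame-shifting edits, so they do not measure the knockout. Between the CHIR concentrations, Cdh3 went up to 3347 and 3481 and Cdh4 to 10276 and 6666, log2 differences of 2.36 ± 0.36 and 1.96 ± 0.23. Cdh11 fell to 1004 and 589, a difference of -1.47 ± 0.23, and its call was lost without the high CHIR library of replicate 3. Cdh2 was at 1222 and 1236 in high CHIR, and its difference of -0.91 ± 0.39 was not called (adjusted p = 0.234). A change on CHIR was therefore measurable for Cdh3, Cdh4 and Cdh11 transcripts in cells in which these genes were targeted. The difference from the CTRL response was -0.35 for Cdh3 (95% interval -1.38 to 0.68) and 0.12 for Cdh4 (-0.55 to 0.78).

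Of the 10 other cadherins with a symbol, 3 were higher, 3 were lower and 4 were not called. Cdh13, the membrane-anchored T-cadherin, rose from 133 and 180 to 1285 and 980. The protocadherin Pcdh7 went from 94.6 and 139 to 257 and 626 and Pcdh19 from 23.4 and 71.3 to 144 and 382, but neither was called without the date block (adjusted p = 0.0659 and 0.141). Falls were found for the atypical cadherin Fat3, from 484 and 359 to 39.8 and 19.6, the protocadherin Pcdh1, from 104 and 76.2 to 10.9 and 7.48, and Cdh15, from 177 and 152 to 13.3 and 29.0. Cdh1 (E-cadherin), the cadherin of mature epithelia, was at 160 and 112 in low CHIR against 128 and 254 in high CHIR. The dates disagreed in sign for Cdh1, with log2 differences of -0.32 and 1.18, and the gene was not called (adjusted p = 0.857). Its fitted value of 0.43 became negative, at -0.21, without the high CHIR library of replicate 3.

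**Figure D2:**
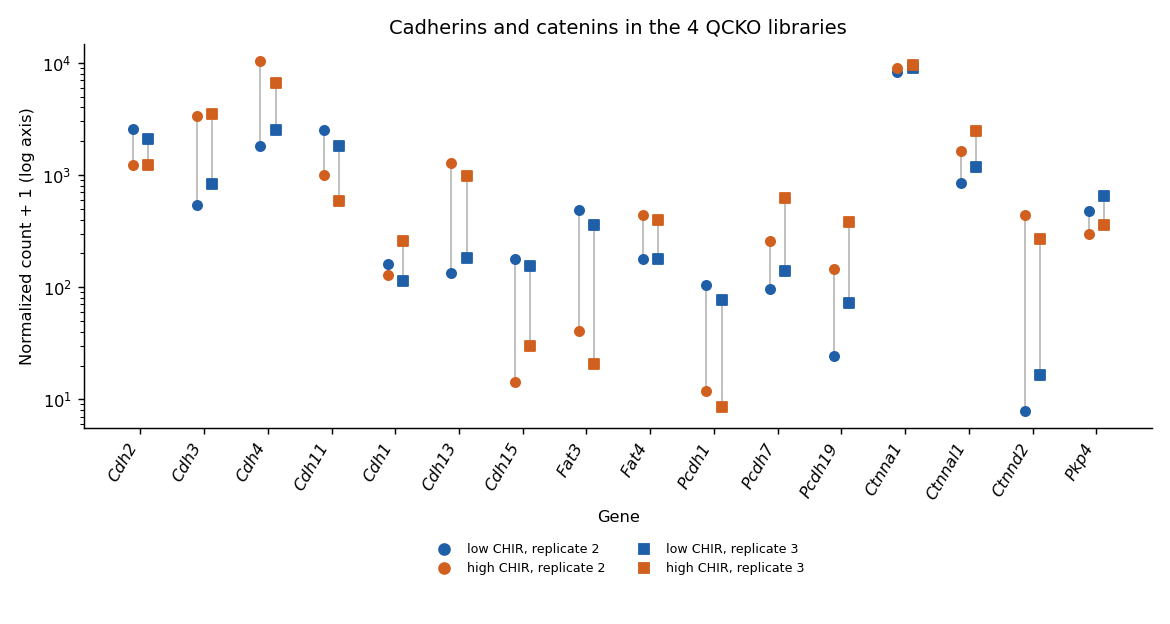
Normalized count plus 1 (log axis) of the 4 targeted cadherins, 8 other cadherins and 4 catenin family genes in each QCKO library, drawn with blue for low CHIR, orange for high CHIR, circles for replicate 2, squares for replicate 3 and grey lines joining libraries of 1 title date. Cdh3 and Cdh4 rise and Cdh11 falls, while the lines of Cdh1 run in opposite directions.

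Among catenin family genes, Ctnnd2, the neuronal δ-catenin that binds the cadherin juxtamembrane region, stood out with 6.94 and 15.4 against 442 and 268, a log2 difference of 4.92 ± 0.51. Ctnna1 (α-catenin), which links the complex to actin, was at 8327 and 8939 against 8915 and 9631, a difference of 0.10 with a 95% interval of -0.27 to 0.48. The α-catenin-related Ctnnal1 rose by 1.01 ± 0.21 and the plakophilin Pkp4 fell by 0.77 on the log2 scale. Neither of the last 2 calls held without the date block (adjusted p = 0.116 and 0.108).

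Genes of other junctions rose in 3 of 7 cases, and none fell. Marveld2, the tricellular tight junction protein tricellulin, went from 18.2 and 49.2 to 315 and 416. Dsc2, the desmosomal cadherin desmocollin 2, went from 9.54 and 10.6 to 61.6 and 77.6, and Patj, a scaffold of the apical Crumbs complex, from 310 and 283 to 665 and 742. The call of Dsc2 was lost without any 1 QCKO library and that of Patj without 3 of the 4. The claudins Cldn1 (adjusted p = 0.843) and Cldn3 (adjusted p = 0.955) were not called. Of 5 mesenchymal genes, the repressors of epithelial genes Snai2 and Zeb1 were lower, at 2808 and 2218 against 417 and 354 and at 2012 and 1814 against 229 and 212. Snai1 (adjusted p = 0.896), Vim (0.111) and Tgfb2 (0.168) were not called.

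Matrix and integrin genes changed both ways, with 4 of 20 higher and 8 lower. Col9a1, a fibril-associated collagen chain, went from 288 and 103 to 1.21 and 0.935. The basement membrane linker Nid2 fell from 6379 and 6047 to 687 and 553 and the matrix glycoprotein Tnc from 2019 and 3331 to 336 and 382. Itga9, an integrin chain that binds tenascin, fell with them, from 1175 and 1497 to 210 and 194. In the other direction, the calcium-binding matrix protein Smoc2 went from 0 and 6.75 to 202 and 343 and the basement membrane collagen Col18a1 from 193 and 172 to 1335 and 1378. Integrin chains Itgb3 and Itgb8 rose by 3.74 ± 0.62 and 2.24 ± 0.48 from low levels. The calls of Nid2, Itgb3 and Itgb8 were each lost without 2 or 3 of the QCKO libraries. Among guidance genes, 8 of 16 were higher and 3 were lower. Sema5b, a semaphorin, went from 1.74 and 16.4 to 165 and 201 and the ephrin receptor Epha4 from 316 and 678 to 2354 and 4172. The plexin Plxna4 fell from 226 and 137 to 10.9 and 15.0. Slit2 rose by 1.79 ± 0.18 and its receptor Robo1 by 1.81 ± 0.30, opposite to Robo2. The calls of Efnb1, Sema6a and Unc5d in this list were lost without the date block (adjusted p = 0.118, 0.0515 and 0.0533) and in 10, 7 and 7 of 14 omissions of a library.

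**Figure D3:**
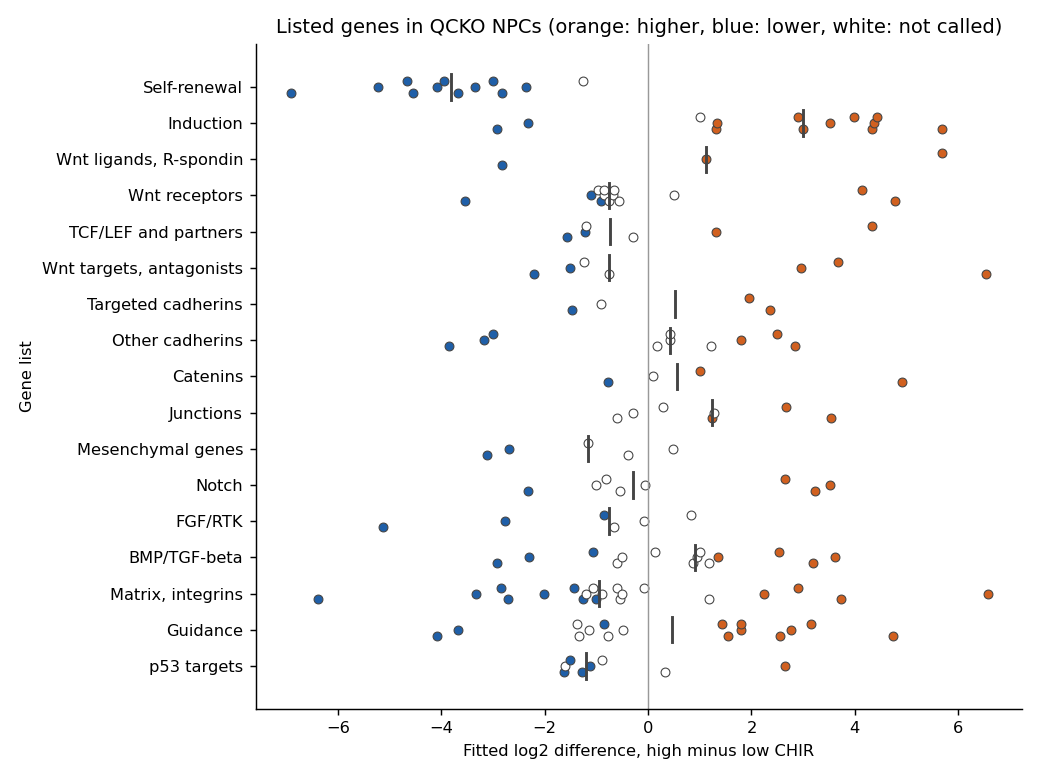
Fitted log2 difference between high and low CHIR in QCKO NPCs (x axis) for each tested member of 17 gene lists (y axis). Orange points were called higher, blue points lower and white points not called, with a black bar at the list's median; self-renewal genes lie to the left of 0 and most induction genes to the right, while the other lists hold both signs.

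Among signalling genes beyond Wnt, about as many were called as not. In the Notch list, 3 of 8 genes were higher, 1 was lower and 4 were not called. Heyl, a transcriptional effector, went from 19.1 and 98.3 to 367 and 477, and Dtx4, a ubiquitin ligase of the pathway, from 33.8 and 44.4 to 292 and 210, while Hes1 fell. Heyl was not called without the date block (adjusted p = 0.0552), and the receptor Notch2, at 3870 and 4551 against 1969 and 2212, was not called (adjusted p = 0.206). In the FGF list none of 6 genes was higher, 3 were lower and 3 were not called. Fgf1, a ligand, fell from 1594 and 2192 to 29.0 and 95.4, and Etv1, an ETS factor downstream of receptor tyrosine kinases, from 1672 and 1857 to 261 and 252. The feedback inhibitor Spry1 fell by 0.85 on the log2 scale, a call lost without any 1 QCKO library. In the BMP and TGFβ list, 4 of 14 genes were higher, 3 were lower and 7 were not called. The ligand Bmp7 went from 52.0 and 121 to 682 and 1408, its receptor Bmpr1b from 109 and 203 to 1266 and 1492, and Id4, a target, from 106 and 256 to 739 and 1229. The TGFβ receptors Tgfbr2 and Tgfbr3 had differences of -1.06 and -2.31, with an adjusted p of 0.0548 for each without the date block.

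In a list of glycolysis and retinoid genes, 2 of 5 tested genes were higher, 1 was lower, and the glycolytic genes Hk1 and Pfkm were not called. Aldh1a3, an enzyme that makes retinoic acid, rose from 113 and 155 to 6902 and 12825, a log2 difference of 6.14 ± 0.30 (adjusted p = 1.89e-06, limma). Crabp2, which carries retinoic acid to the nucleus, rose from 151 and 124 to 2660 and 1395. Rdh10, the enzyme of the preceding retinol oxidation step, fell from 2059 and 2516 to 49.5 and 97.3. The enzymes of successive steps in the pathway thus changed in opposite directions. Ccnd2, a D-type cyclin, rose from 4631 and 6069 to 23621 and 20363, the only one of 5 tested genes of the proliferation list that was called. Of 8 p53 target genes, Ccng1, Eda2r, Sesn2 and Trp53inp1 were lower, Pmaip1 was higher and 3 were not called. The calls of Ccng1 and Sesn2 were lost without 3 of the 4 QCKO libraries and those of Eda2r, Trp53inp1 and Pmaip1 without any 1 of them, and the latter pair also without the date block (adjusted p = 0.0725 and 0.0769). Cdkn1a, the main p53 target, was at 3121 and 4033 against 4359 and 4558 (adjusted p = 0.769).

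The 10 largest rises are those of called genes that carry a symbol, average at least 100 normalized counts across the 14 libraries and do not overlap between the QCKO groups. Ntsr2, a neurotensin receptor, lacked reads in low CHIR and stood at 650 and 666 normalized counts in high CHIR, at least 481-fold higher against a floor of 3 reads over the group. Serpinb7, a serine protease inhibitor, likewise lacked reads in low CHIR and stood at 264 and 567 in high CHIR, at least 317-fold higher. Sptlc3, a subunit of serine palmitoyltransferase, had 1 read in low CHIR, against 593 and 355 normalized counts in high CHIR, a ratio of 1010 with a counting interval of 180 to 39700. These genes were at or near silence in low CHIR. Cthrc1, a secreted collagen-region protein, was measurable on both sides, at 48.6 and 36.6 against 7521 and 10503, a log2 difference of 7.68 ± 0.47. Krt23, a keratin, went from 3.47 and 2.89 to 596 and 1756, and Syk, a tyrosine kinase, from 5.21 and 21.2 to 1564 and 1119. Msx1, a homeobox gene, went from 0.867 and 1.93 to 345 and 294, a ratio of 231 with a counting interval of 78.6 to 1120. Gm10522, Sv2b and Tek made up the rest, each at no more than 2.89 normalized counts in low CHIR.

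The 10 largest falls were led by the other neurotensin receptor. Ntsr1 went from 650 and 1530 to 1.21 and 0, a ratio of 2020 with a counting interval of 363 to 80000. Il33, a nuclear cytokine, fell from 9142 and 7411 to 16.9 and 15.0, and Nell1, a secreted EGF-repeat protein, from 3111 and 2918 to 9.66 and 16.8. Thus 2 neurotensin receptors exchanged places between the CHIR concentrations, each at under 2 normalized counts where the other was high. Matn1, a matrilin, went from 356 and 1003 to 1.21 and 3.74, and Ch25h, a cholesterol hydroxylase, from 1590 and 591 to 8.45 and 6.55. CJ186046Rik fell by 7.83 on the log2 scale, and B3galt5, a galactosyltransferase, went from 150 and 356 to 0 and 12.2. Tgtp1 and Tgtp2, interferon-inducible GTPases, had differences of -5.55 and -5.67, but these near-identical genes share reads and are uncertain as separate results.

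**Figure D4:**
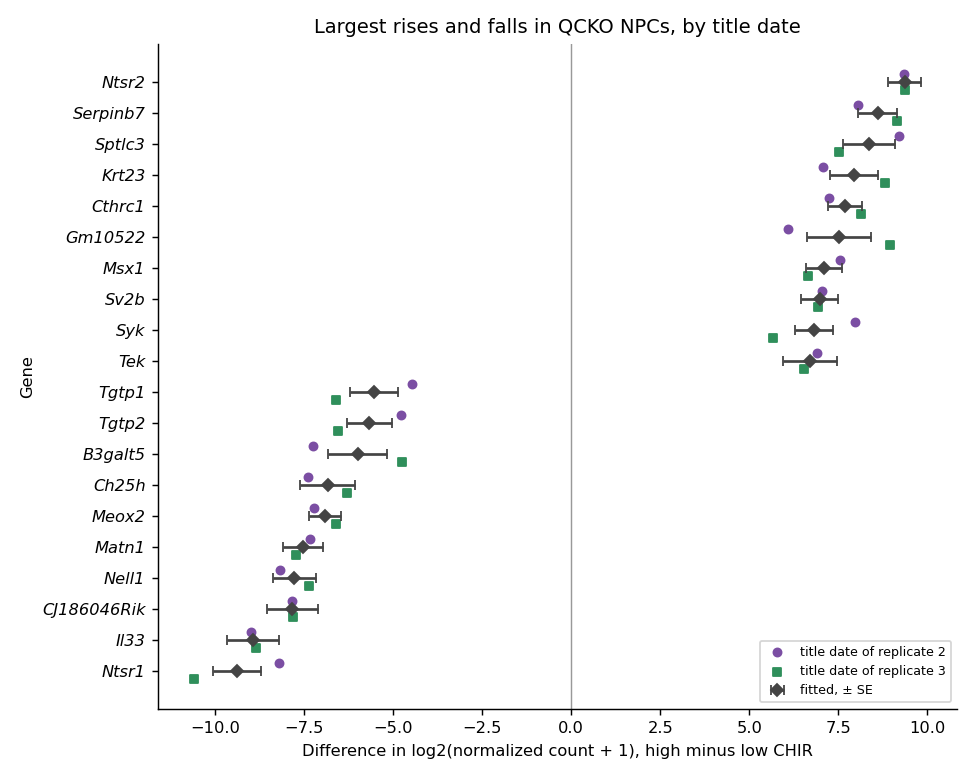
Difference in log2(normalized count + 1) between high and low CHIR (x axis) for the 10 largest rises and 10 largest falls in QCKO NPCs (y axis). Purple circles and green squares give the title dates of replicates 2 and 3 and black diamonds the fitted value ± SE; the dates differ most for Gm10522, at 6.10 and 8.96.

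Markers of other kidney cells were examined because sorted NPC cultures can hold them. The 12 self-renewal genes, the markers of the labelled cell type, summed to 24070 and 21840 normalized counts in low CHIR, against 1974 and 1594 in high CHIR, which restates their fall given above and is no check of cell identity. Of 13 ureteric markers, 6 had a symbol, summing to 1338 and 1157 in low and 1957 and 2267 in high CHIR. Within that list Gata3 rose from 78.9 and 24.1 to 857 and 874 and Hoxb7 by 1.07 ± 0.22 (adjusted p = 0.0561 without the date block), whereas Sox9 fell by 1.93 on the log2 scale and Krt8 and Cdh1 were not called. The 2 stromal markers with a symbol, Meis1 and Meis2, summed to 4318 and 2877 against 1531 and 1239, and both were lower, with the call of Meis1 lost without 3 of the 4 QCKO libraries. The angiopoietin receptor Tek, the 1 endothelial marker with a symbol, was at 0.867 and 2.89 against 221 and 357. The podocyte marker Tcf21 was at 5104 and 4918 against 738 and 380 and the tubule marker Mecom at 192 and 118 against 855 and 1993, whose call was lost without 3 of the 4 QCKO libraries. Tfap2b, the other tubule marker with a symbol, was at 53.8 and 54.0 against 10.9 and 7.48 and was not called (adjusted p = 0.096). The part of other cell types in the results above was not tested, and no leukocyte marker of the list had a symbol. The interferon-response genes Irf7 and Oasl1 were higher, and the call of Oasl1 was lost without any 1 QCKO library and that of Irf7 without 3 of the 4.

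The response of QCKO was then set against that of CTRL as a difference of differences. No gene was called by limma, edgeR or DESeq2, while 366 genes had an unadjusted p under 0.05 in limma, 383 in edgeR and 358 in DESeq2. If no response differed, a share of 0.05 of the 16516 genes tested would have such a p. These counts, from all 14 libraries, lie below that share. The limma count ranged from 237 to 1100 when 1 library was left out, with 237 without QCKO high CHIR replicate 2 and 1100 without CTRL high CHIR replicate 1. It was 213 without the date block, 174 at a mean of at least 100, 1029 without a filter and 556 without the libraries of replicate 1. The 95% interval of the difference had a median half-width of 0.902 on the log2 scale. This interval is not adjusted for the number of genes, so a call for a typical gene would need a larger difference than that. Of the 1278 genes called in QCKO, 1274 had the same sign in CTRL, 308 had an interval of the difference lying within 1 of 0, and 122 had an interval that excluded 0 before adjustment. These genes were chosen for their QCKO response, which favours larger values in QCKO, and both responses share the fit and its date block.

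The genes with a symbol and the lowest unadjusted p are given as values, since none passed the adjustment (adjusted p = 0.999 for each, limma). Slc40a1, the iron exporter ferroportin, was at 487 and 198 against 182 and 141 in QCKO, while CTRL went from 1087, 611 and 683 to 144, 97.2 and 44.7, a difference in log2 response of 2.20 ± 0.44. Rasl11a, a Ras-like GTPase gene, had a response of 4.01 in QCKO and 2.12 in CTRL. The homeobox genes Dlx5 and Msx1 had responses of 6.04 and 7.09 in QCKO and 3.09 and 4.29 in CTRL, and Gem, another small GTPase, 0.44 and -1.45. All 5 differences were positive. For Six2 the difference was -1.03 (95% interval -1.97 to -0.09), for Wnt4 -0.65 (-1.59 to 0.30), for Lef1 0.24 (-0.45 to 0.93) and for Axin2 0.16 (-0.50 to 0.82). Notum had a response of 6.53 in QCKO and 4.74 in CTRL, and Aldh1a3 one of 6.14 and 4.54. Cdh1 had one of 0.43 in QCKO and -1.95 in CTRL (95% interval of the difference 0.57 to 4.20), and this difference was not called either.

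Against α-catenin KO, in which the cadherin-bound link to actin was targeted instead, no gene was called either. Less than a share of 0.05 of the genes tested had an unadjusted p under 0.05, namely 126 genes (132 in edgeR and 105 in DESeq2). That count was 219 and 252 without α-catenin KO high CHIR replicates 1 and 3 and 198 without its low CHIR replicate 3. It was 83 without the date block, 374 with only the groups compared, 697 without a filter and 13 at a mean of at least 100. The median half-width of the interval was 0.988. Aldh1a3, with responses of 6.14 in QCKO and 4.41 in α-catenin KO, Galnt15, Gnat2, Scnn1a and Chrdl2 had the lowest p among genes with a symbol. Galnt15, a glycosyltransferase gene, was at 33.0 and 74.2 in low CHIR and had no reads in high CHIR in QCKO, at least 33.2-fold lower, and was at 9.46 and 17.8 against 2.58 and 1.01 in α-catenin KO. Chrdl2, a BMP antagonist, lacked reads in low CHIR and stood at 101 and 44.0 normalized counts in high CHIR in QCKO, at least 50.4-fold higher. Gnat2, a transducin subunit, had responses of 2.90 and 0.15, and Scnn1a, a subunit of the epithelial sodium channel, of -0.08 and -2.40. These 5 genes were at low levels in most libraries other than Aldh1a3, and none passed the adjustment.

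The response in QCKO differed from that in β-catenin KO, where the transcriptional partner itself was targeted. In a fit of all 20 libraries, 252 of 16691 genes (1.51%) had a different response, 84 with a higher (0.503%) and 168 with a lower value (1.01%) in QCKO. Among genes with a symbol 6.09% differed, 1.94% with a higher and 4.14% with a lower value in QCKO. Of the 12 self-renewal genes, 9 differed. Six2 fell in QCKO as given above, while in β-catenin KO it was at 1236, 970 and 773 in low CHIR and at 798, 409 and 468 in high CHIR, a difference in log2 response of -4.36 ± 0.44 (adjusted p = 0.000166, limma). Crym, at 3478, 2804 and 2942 against 4979, 2534 and 3507 in β-catenin KO, differed by -4.76 ± 0.31. Meox2, Rdh10 and Bcl2, an inhibitor of apoptosis that fell from 4158 and 3709 to 228 and 252 in QCKO, differed by -5.97, -4.56 and -3.15. Leaving out 1 library gave between 79 and 400 differing genes, with 79 and 120 without QCKO low CHIR replicates 2 and 3, 160 and 82 without the high CHIR ones, 143 without β-catenin KO low CHIR replicate 3, 163 without high CHIR replicate 1 or 3 of β-catenin KO and 400 without CTRL high CHIR replicate 2. Within dates, Six2, Meox2, Rdh10 and Bcl2 were lower in high than in low CHIR at all 3 dates of β-catenin KO as well, while Crym was higher at 2 dates and lower at 1.

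**Figure D5:**
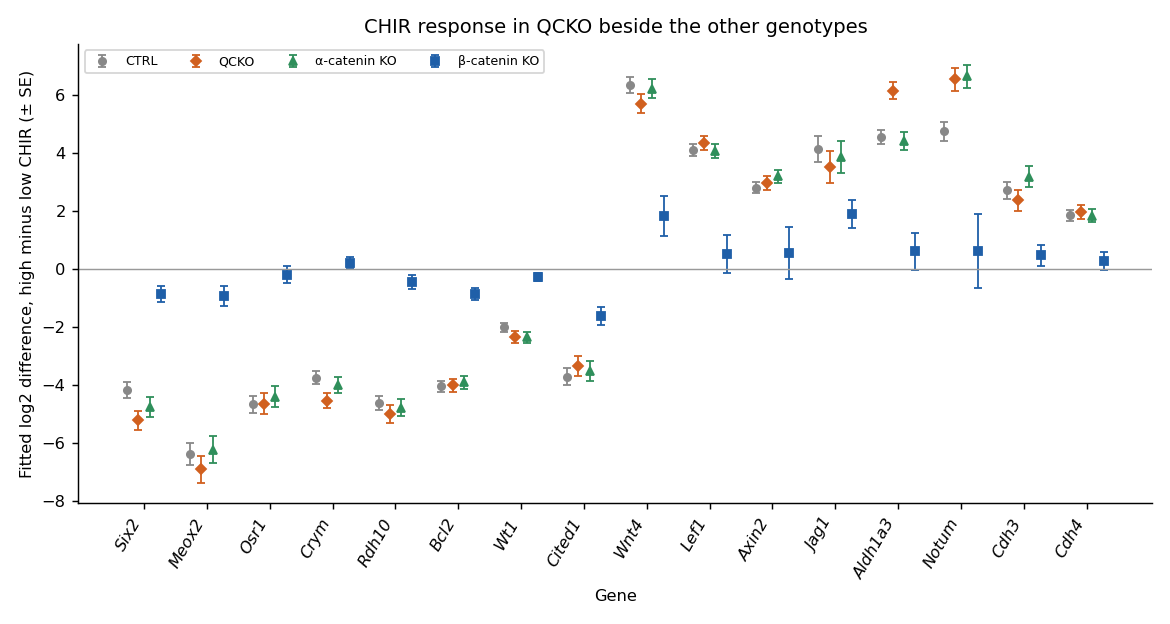
Fitted log2 difference between high and low CHIR ± SE (y axis) for 16 genes (x axis) in CTRL (grey circles), QCKO (orange diamonds), α-catenin KO (green triangles) and β-catenin KO (blue squares, from the fit of all 20 libraries). QCKO lies near CTRL and α-catenin KO for most genes, but its response is larger in size than that of CTRL for Notum, Aldh1a3 and Six2. The values of β-catenin KO lie nearer to 0, with wider bars for the induced genes.

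Of the 13 induction genes, 3 differed in response from β-catenin KO, namely Hes1, Npy and Bmper. The β-catenin KO libraries did not resemble each other for several Wnt target genes. Wnt4 was at 30.1 in the low CHIR library of replicate 1 but at 831 and 634 in those of replicates 2 and 3, Axin2 at 13.97, 560 and 384, and Notum at 1.07, 562 and 325. In QCKO low CHIR, Notum was at 2.60 and 1.93. The difference in response was 3.87 ± 1.09 for Wnt4 (adjusted p = 0.109) and 2.42 ± 1.43 for Axin2 (adjusted p = 0.703), and neither was called. Aldh1a3 was called, with a difference of 5.55 ± 1.02 (adjusted p = 0.0106). The number of differing genes was 286 without the β-catenin KO libraries of replicate 1 and 129 without those of replicates 2 and 3, and 65 without the date block. The direction split turned in the second of these, with 79 genes higher and 50 lower in QCKO, against 121 and 165 in the first and 84 and 168 with all libraries. Six2, Crym, Meox2, Rdh10 and Bcl2 differed in each of these alternatives. What sets the β-catenin KO libraries apart was not tested.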

How the data were processed

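Messenger RNA was sequenced from sorted mCherry+ NPCs in 20 libraries, 14 of them in the fit used for most results. The deposited signal values are reads per gene, scaled by the authors with a single factor for each library. Every value was a whole multiple of its library's step (100% within 0.001), which returned the reads. The submitters' processing notes list STAR, Salmon, featureCounts from Subread, bcl2fastq and DESeq2 without roles, and the versions are not given in the sources used here. The authors' comparison tables hold log2 ratios and p-values and were used for symbols only.

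Values were analysed as log2(normalized count + 1) for genes with a mean of at least 10, in R 4.3.3 with limma 3.58.1 (1 mean per group, mean-variance trend, title date as a block, Benjamini-Hochberg adjustment). Fold changes are on that scale and understate changes of low genes. Differences between responses were interaction terms, with all 20 libraries for β-catenin KO. The dates in the sample titles pair the libraries. Deviations from the group means correlated at 0.29 between QCKO libraries of the same date, at 0.0433 to 0.392 in CTRL and at 0.463 in α-catenin KO.

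Genes named are the 4 targeted cadherins, genes the study names, the 10 largest rises and falls, up to 4 called genes per direction in each list, members of the Wnt, cadherin, catenin, Notch and FGF lists, and the 5 genes with the lowest p in each comparison of responses. Other genes, such as the remaining members of a list, were named after their values were seen. The members, lists and rules were chosen with earlier results of these data known. Alternatives were no filter or a mean of 100, pseudocounts of 0.25 and 5, an absolute log2 difference over 1, quantile normalization, other sets of libraries, no date block, edgeR 4.0.16 and DESeq2 1.42.0 on the recovered reads, and leaving out each library. The fits were tested on simulated data. Counting intervals and floors are at 95% and cover counting error only. Guide sequences came from the study's supplement and promoters from RefSeq (GRCm38.p6).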

Additional observations from a re-analysis of the deposited data

Results flagged for a closer look

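The response to high CHIR differed between QCKO and β-catenin KO for 252 genes by a test of the difference itself (limma interaction term, adjusted p under 0.05), and this and the following 5 genes were singled out for that reason. The log2 response in QCKO minus that in β-catenin KO was -4.763 for Crym, -4.562 for Rdh10, -5.971 for Meox2, -3.152 for Bcl2 and -4.36 for Six2. For each of these 5 genes both QCKO dates fell, and none of the alternatives run ended the call.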

How the results depend on the processing

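With the date block left out (no replicate block), high CHIR changed 814 genes in QCKO instead of 1278, and 65 instead of 252 genes differed in response from β-catenin KO. Changed genes numbered 797 at a mean of at least 100, where fewer genes were tested, and 2806 with the 4 QCKO libraries alone. The comparison with β-catenin KO gave 530 genes with DESeq2, 639 with only the groups compared, and 129 without the β-catenin KO libraries of replicates 2 and 3, an alternative chosen after seeing the data. The cause of these shifts was not tested. Leaving out 1 library gave 520 to 1845 changed genes and 79 to 400 genes that differed from β-catenin KO. The remaining alternatives kept both counts within 1.5 times the reported ones, and the comparisons with CTRL and α-catenin KO gave 0 genes in each alternative run. Fits without replicate 1, or with CTRL and QCKO only, were also added after seeing the data.

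Some genes that were not called changed sign when 1 library was left out. Over these omissions the lowest and highest log2 differences were -0.2525 and 0.1102 for Fgfr4, -0.2868 and 0.1794 for Maml2, -0.3745 and 0.2197 for Scnn1a, -0.2427 and 1.091 for Cdh23, -0.2132 and 1.075 for Cdh1, and -0.004949 and 0.2109 for Ctnna1. Quantile normalization put Ctnna1 at -0.02083. Of 118 named genes called, 40 lost the call in at least 1 omission of a library and 19 without the date block. The median SE of the QCKO difference was 0.318 on the log2 scale, which with 2 libraries per concentration limits which small changes could be called.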
